A study of Saccharomyces cerevisiae with 18 samples.

Results

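Sulfate assimilation and methionine synthesis in *Saccharomyces cerevisiae* colonies was followed through 34 genes, chosen by name from the 5543 genes on the arrays for their place in the pathway. The choice was made with earlier results of these data known, so counts set beside the shares of all genes are a description. RNA of whole colonies was hybridised on 18 two-colour spotted arrays, each with 2 of the 3 strains. BR-F is a wild strain with structured biofilm colonies, and BR-S is its domesticated derivative with smooth colonies. BR-RF is a feral strain, a single subclone that arose from BR-S during long static culture under carbon limitation and that forms structured colonies again. All colonies grew on yeast extract agar with glycerol, a respiratory medium, and were harvested on day 4 or day 7. The couples of strains are written BR-RF/BR-F, BR-F/BR-S and BR-RF/BR-S, the ratio being that of the first strain over the second, and each had 3 arrays on each day. The first biological replicate was hybridised on arrays 1 and 2 with the dyes exchanged, and these were averaged, and the second biological replicate was hybridised on array 3. BR-F and BR-RF colonies hold some smooth subclones, and in RNA of whole colonies a smaller share of expressing cells and less RNA per cell cannot be told apart.

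Yeast takes up sulfate, activates it with ATP, reduces it in steps to sulfide and joins the sulfide to O-acetylhomoserine, which gives homocysteine. Homocysteine is methylated to methionine or turned into cysteine by transsulfuration, and methionine becomes S-adenosylmethionine, the methyl donor of the cell. The pathway is known to be switched on when methionine and cysteine run short, through the activator Met4p, which is brought to promoters by Cbf1p, Met31p and Met32p with the help of Met28p and is held in check by the ubiquitin ligase SCF-Met30.

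All 34 genes were matched to 2 spots each. *MET32* had no usable spot on any array, 33 genes had values, 27 of them on all 18 arrays, and 29 were measured in both biological replicates of all 6 couples and days. Named spots used per array numbered 8038 to 10291, and the median signal over background was 0.717 to 3.34 by array and dye. Values are log2 ratios from a limma fit, each a mean of 2 biological replicates with its SE, and calls were made at a Benjamini-Hochberg adjusted p under 0.05 over all genes measured in that couple and day. The labels do not say that the biological replicates came from separate platings, so the p-values measure the spread between these RNA samples. The adhesin gene *FLO11*, looked up as a check of the strain labels, was measured in both biological replicates in 4 of the 6 couples and days and was not called in any of these, with 0.14 ± 0.14 in BR-F/BR-S and 0.21 ± 0.14 in BR-RF/BR-S on day 7 (limma adjusted p = 0.595 and 0.357), so it did not serve to check them.

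On day 7, 14 of 33 measured sulfur genes were called higher in the feral strain against the wild strain, where 7.93% of all genes were, and 6 of 32 were called lower in the wild strain against the smooth strain, where 5.10% of all genes were. The feral and smooth strains gave 3 calls on that day. On day 4 most ratios with BR-F lay on the other side of 0. In BR-RF/BR-F the median of the measured genes was -0.26 on day 4 (6 of 33 above 0) and 0.48 on day 7 (28 of 33 above 0), while the median of all genes was 0 and -0.01. In BR-F/BR-S it was 0.24 on day 4 (24 of 31 above 0) and -0.19 on day 7 (8 of 32 above 0), and in BR-RF/BR-S it was -0.02 and 0.04. The first 2 couples share BR-F, so their opposite signs are not independent of each other. In all, 15 of the 33 genes with values were called in at least 1 couple and day, in 27 calls. The share of all genes called in at least 1 couple and day is not given here, so this pooled count has no background beside it.

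**Figure D1:**
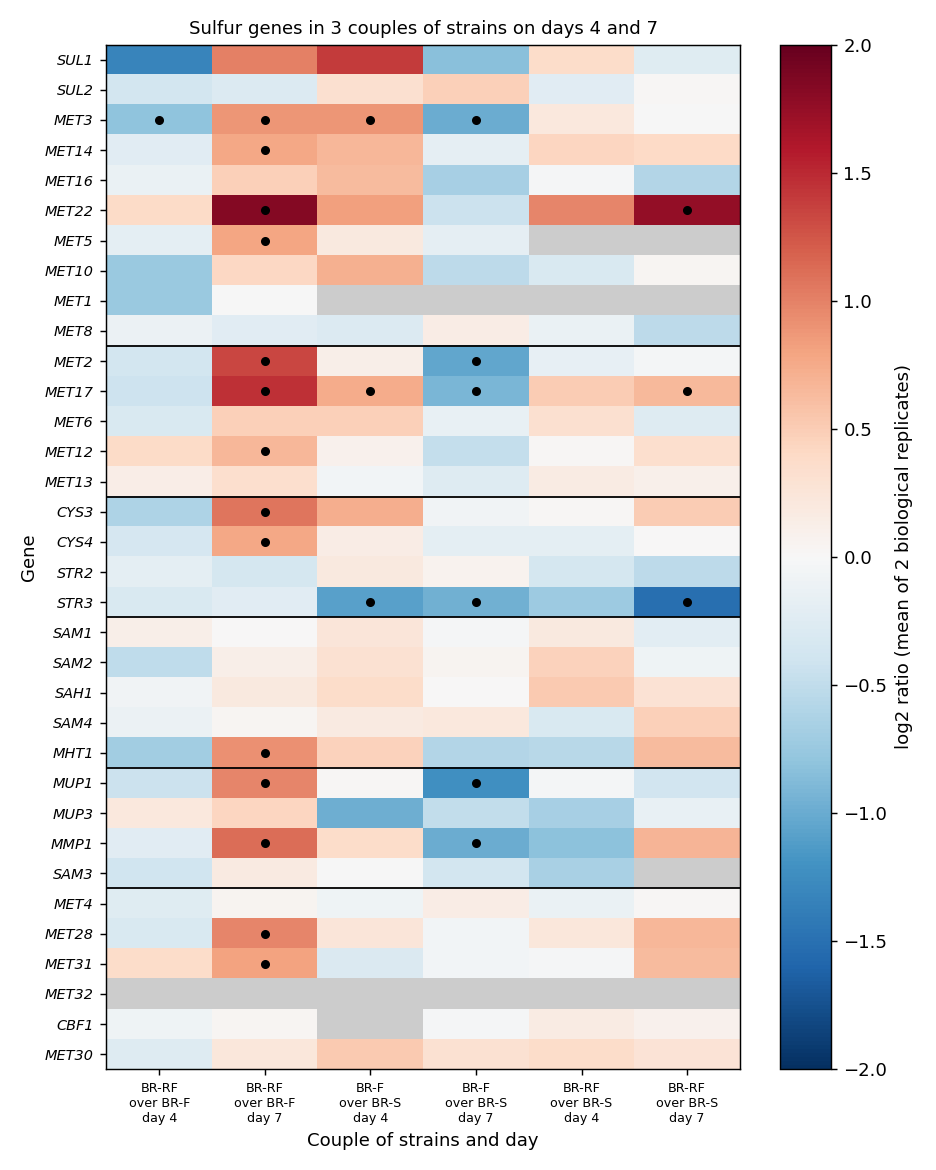
Mean log2 ratio of each sulfur gene (rows, grouped by role between black lines) in the 3 couples of strains on days 4 and 7 (columns). Red is higher in the first-named strain, blue is lower, a dot marks a limma adjusted p under 0.05 and grey marks genes not measured in both biological replicates; 14 of the 27 dots lie in BR-RF/BR-F on day 7.

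**Figure D2:**
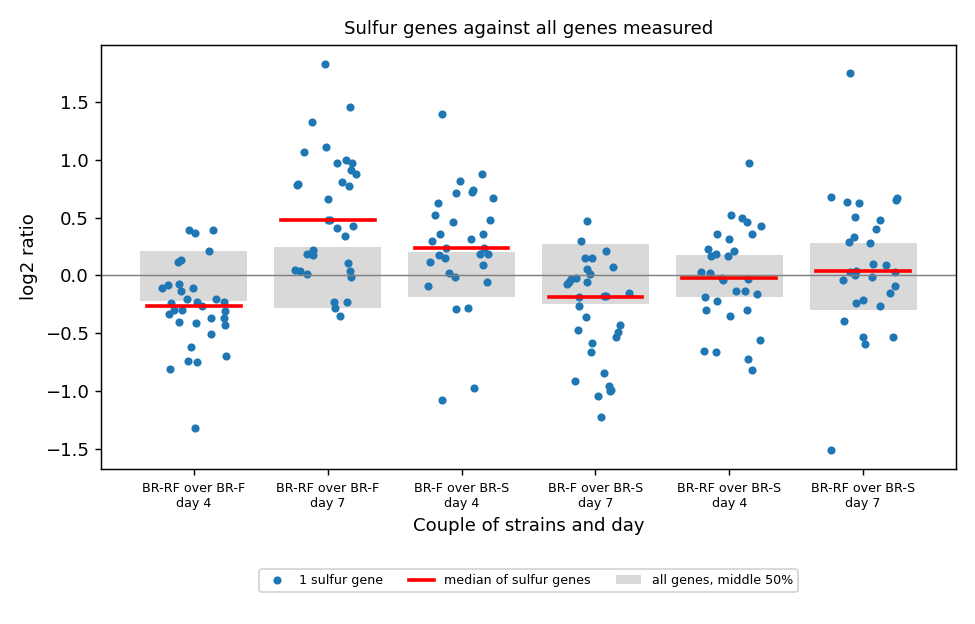
Log2 ratios of the sulfur genes (blue points, 1 per gene, spread sideways at random) with their median (red line) and the range between the quartiles of all genes measured (grey bar). In BR-RF/BR-F the median of the sulfur genes was -0.26 on day 4 and 0.48 on day 7, and the quartiles of all genes on day 7 were -0.28 and 0.25.

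In BR-RF/BR-F on day 7, 14 of the 33 measured genes rose (42.4%) and 0 fell. Of all 4983 genes tested in this couple and day, 7.93% were called higher and 7.51% lower. The 14 came from every role. They were 4 of 10 genes of sulfate uptake and reduction, 3 of 5 of homocysteine and methionine synthesis and 2 of 4 of cysteine synthesis and transsulfuration. The others were 1 of 5 of the S-adenosylmethionine cycle and methyl salvage (the salvage gene *MHT1*), 2 of 4 permeases and 2 of 5 measured regulators. In 13 of the 14 every measured array was above 0, *CYS3* being the exception. The 14 were called on the mean of these same arrays, so the shared sign is no separate support. Leaving out array 3, the sole array of biological replicate 2, left 7 called genes (*MET2*, *MET17*, *MET22*, *MET28*, *MHT1*, *MMP1* and *MUP1*), in a fit where the remaining replicate was assumed to vary like the other groups. The image of array 3 was also processed in a later period than those of arrays 1 and 2 in every couple and day. With the biological replicate as a block, which separates array 3 from the others, 9 genes were called, and *MET14* (adjusted p = 0.0562), *MET31* (0.0613), *MET5* (0.0639), *MHT1* (0.075) and *MET12* (0.0755) lost their calls. No share of all genes is given here for the fits without array 3 or with the block, so these counts have no background beside them.

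Among the genes that activate and reduce sulfate, *MET3*, which encodes ATP sulfurylase, the first enzyme of the pathway, had log2 ratios of 0.85, 0.56 and 1.07 on arrays 1, 2 and 3 of BR-RF/BR-F on day 7. The fitted ratio was 0.88 ± 0.16 (SE, n = 2 biological replicates), 1.85-fold, with a limma adjusted p of 0.00407. *MET14* encodes the next enzyme, adenylylsulfate kinase, and its 3 arrays lay at 1.29, 0.19 and 0.82, all above 0 but far apart (0.78 ± 0.20, adjusted p = 0.0233 in limma). *MET5*, a subunit gene of sulfite reductase, was at 0.81, 0.48 and 0.93 (0.79 ± 0.20, adjusted p = 0.0329). The call on *MET5* was lost without any 1 of the arrays, that on *MET14* without array 1 or array 3, and that on *MET3* without array 3 (adjusted p = 0.0761).

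*MET16*, the gene of phosphoadenylylsulfate reductase, which acts between *MET14* and sulfite reductase, was at 0.08, 0.64 and 0.60 and did not pass the test (0.48 ± 0.20, adjusted p = 0.131). *MET10*, which encodes the other subunit of sulfite reductase, was at 1.02, 0.38 and 0.12 (0.41 ± 0.25). *MET1* and *MET8*, which make the siroheme cofactor of that enzyme, were at -0.01 ± 0.25 and -0.23 ± 0.27. Their arrays had both signs, at 1.13, -0.17 and -0.50 for *MET1* and at -1.88, 0.38 and 0.29 for *MET8*. With a dye term *MET1* was at 0.38 and *MET8* at -0.54, and the subunit genes *MET5* and *MET10* were at 0.72 and 0.56. The difference between the siroheme and the subunit genes was not tested. The largest ratios of *MET1* and *MET10* in size were on day 4 of BR-RF/BR-F, at -0.01, -1.76 and -0.62 for *MET1* (-0.75 ± 0.25, adjusted p = 0.17) and at -0.12, -1.11 and -0.86 for *MET10* (-0.74 ± 0.25, adjusted p = 0.129). With a dye term in the limma fit *MET1* was called there (-1.07, adjusted p = 0.00894) and *MET10* was not (-0.79, adjusted p = 0.0516).

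The paired permease genes for sulfate differed in their values but neither was called. *SUL1* had ratios of -0.79, 0.65 and 2.07 on the 3 arrays of BR-RF/BR-F on day 7, a spread of both signs (1.00 ± 0.42, adjusted p = 0.135). *SUL2* lay at 0.53, -0.03 and -0.81 (-0.28 ± 0.35, adjusted p = 0.644). *SUL1* had the highest ratio of the role on day 4 of BR-F/BR-S, at 2.27, 1.35 and 1.00 on the arrays, and the lowest in BR-RF/BR-F on day 4, at -1.37, -0.33 and -1.79. These were not called either (adjusted p = 0.085 and 0.104), and the SE of *SUL1*, 0.42, was more than that of the median gene, 0.191. With a dye term *SUL1* was called in BR-F/BR-S on day 4 (1.67, adjusted p = 0.00414) but not in BR-RF/BR-F on day 4 (-1.04, adjusted p = 0.0588).

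Of the genes for homocysteine and methionine, *MET17* and *MET2* had the highest ratios. *MET17* encodes O-acetylhomoserine sulfhydrylase, the enzyme that takes up the sulfide, and was at 1.82, 1.15 and 1.43 on the 3 arrays of BR-RF/BR-F on day 7 (1.46 ± 0.17, 2.74-fold, adjusted p = 0.000576). *MET2*, whose product makes O-acetylhomoserine, the other substrate of Met17p, was at 0.82, 1.22 and 1.65 (1.33 ± 0.19, 2.52-fold, adjusted p = 0.00129). Both genes kept their calls without any 1 array.

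The methylation step showed lower ratios. *MET6*, which encodes the methionine synthase, lay at -0.05, 0.16 and 0.90 (0.48 ± 0.28, adjusted p = 0.288). The paralogs *MET12* and *MET13* encode methylenetetrahydrofolate reductases, which supply the methyl group. *MET12* was measured on arrays 2 and 3, at 0.90 and 0.43, and was called (0.66 ± 0.18, adjusted p = 0.0348), though not after median centring or with a dye term (adjusted p of 0.0586 with the dye term) and not without array 3. *MET13* lay at -0.25, 0.52 and 0.55 and was not called (0.34 ± 0.15, adjusted p = 0.162). The difference between these paralogs was not tested.

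Both genes that carry sulfur from homocysteine to cysteine were called, and both genes of the reverse route were not. *CYS4*, for cystathionine beta-synthase, was at 0.71, 0.43 and 0.96 (0.77 ± 0.17, adjusted p = 0.0101), and the call was lost without array 3. *CYS3*, for cystathionine gamma-lyase, was at -0.79, 1.94 and 1.58, below 0 on the array with BR-RF in Cy5 and above 0 on both arrays with BR-RF in Cy3 (1.07 ± 0.25, adjusted p = 0.0147). Over all 18 arrays the Cy5 channel of *CYS3* was lower by a dye term of -0.92 on the log2 scale, the largest dye term in size among the sulfur genes. With a dye term in the fit the ratio of *CYS3* was 0.59 and was not called (adjusted p = 0.194), and it was also not called without array 2 or array 3. *STR2*, for cystathionine gamma-synthase, had -0.21, -0.39 and -0.40 (-0.35 ± 0.16), and *STR3*, for cystathionine beta-lyase, had -0.28, -0.36 and -0.15 (-0.23 ± 0.20).

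In the role of S-adenosylmethionine cycle and methyl salvage only the salvage gene *MHT1* was called on day 7 of BR-RF/BR-F. It encodes an S-methylmethionine-homocysteine methyltransferase. Its arrays lay at 2.07, 0.67 and 0.44, all above 0 (0.91 ± 0.24, adjusted p = 0.0283), and the call was lost without array 1. Its paralog *SAM4*, whose product uses S-adenosylmethionine instead, was at 0.78, 0.15 and -0.39 (0.04 ± 0.29). The S-adenosylmethionine synthetase genes *SAM1* and *SAM2*, close copies whose spots may share signal, were at 0.01 ± 0.24 and 0.11 ± 0.17, and *SAH1*, for S-adenosylhomocysteine hydrolase, was at 0.19 ± 0.21. In all 6 couples and days the never-called genes of this role lay between -0.51 (*SAM2*, BR-RF/BR-F on day 4, arrays at -0.12, -0.40 and -0.75) and 0.52 (*SAH1*, BR-RF/BR-S on day 4, arrays at 1.36, 0.37 and 0.18).

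Of the 4 permease genes for methionine and its relatives, 2 rose. *MMP1*, the S-methylmethionine permease gene, which lies beside *MHT1* near the left end of chromosome XII, was at 2.37, 0.81 and 0.63 (1.11 ± 0.26, adjusted p = 0.0147). *MUP1*, the high-affinity methionine permease gene, was at 1.54, 0.63 and 0.84 (0.97 ± 0.18, adjusted p = 0.00503). Array 1 was the highest for both, as for *MHT1*, and without it neither was called. The low-affinity permease gene *MUP3* was at 0.68, 0.53 and 0.26, all above 0 but not called (0.43 ± 0.38). *SAM3*, the S-adenosylmethionine permease gene and paralog of *MMP1*, was at 1.21, 0.01 and -0.26 (0.18 ± 0.29).

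Of the regulators, *MET28* and *MET31* rose, *MET32* was not measured, and the genes of the activator, its promoter-binding partner Cbf1p and its inhibitor were not called. *MET28* was at 1.72, 0.80 and 0.67 (0.97 ± 0.22, adjusted p = 0.0118) and kept its call without any 1 array. *MET31* was at 1.18, 0.74 and 0.66 (0.81 ± 0.21, adjusted p = 0.0273), and its call was lost without array 1 or array 3. *MET4* was at 0.48, -0.42 and 0.06 (0.05 ± 0.13), *CBF1* at -0.05, 0.10 and 0.06 (0.04 ± 0.15), and *MET30*, the F-box gene of SCF-Met30, at 0.34, 0.00 and 0.27 (0.22 ± 0.17). Over all couples and days *CBF1* stayed between -0.08 and 0.17 and *MET4* between -0.24 and 0.15. *MET30*, which was never called, had its largest ratio, 0.52, in BR-F/BR-S on day 4.

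**Figure D3:**
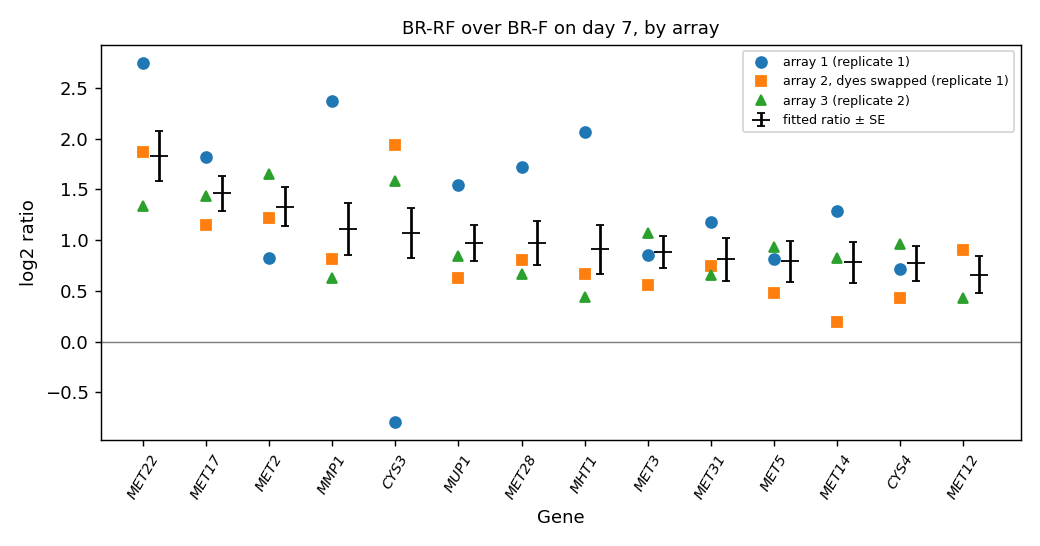
Log2 ratio of BR-RF/BR-F on day 7 on each array (circle, array 1; square, array 2; triangle, array 3) for the 14 called genes, with the fitted ratio and its SE in black. Every point lies above 0 except array 1 of *CYS3* at -0.79, and array 1 is the highest for *MET22*, *MMP1*, *MHT1*, *MET17*, *MET28*, *MUP1*, *MET14* and *MET31*.

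In BR-F/BR-S on day 7, the comparison of the wild strain with its domesticated derivative, 6 of 32 measured genes fell (18.8%) and 0 rose, where 5.10% of all 4902 genes were called lower and 6.08% higher. *MUP1* was lowest at -1.67, -0.82 and -1.19 (-1.22 ± 0.18, 2.33-fold lower, adjusted p = 0.00256). *MET2* was at -1.29, -0.67 and -1.11 (-1.04 ± 0.19, adjusted p = 0.00604), *MET3* at -1.29, -0.89 and -0.91 (-1.0 ± 0.16, adjusted p = 0.00356) and *MET17* at -1.32, -0.23 and -1.05 (-0.91 ± 0.17, adjusted p = 0.0063). *MMP1* was at -0.68, -1.15 and -1.05 (-0.99 ± 0.26, adjusted p = 0.0337). All arrays of these genes, which were called on the mean of the same arrays, were below 0. None of the 6 calls held without array 3, *MET17* also lost its call without array 1, and *MMP1* lost it without any 1 array, after median centring, with a dye term (adjusted p = 0.0501) and with the replicate block (adjusted p = 0.0584).

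*STR3*, the sixth gene called in that couple and day, was set apart by its direction in the other couple. It was at -1.15, -0.70 and -1.01 in BR-F/BR-S on day 7 (-0.96 ± 0.20, adjusted p = 0.0113) and at -1.49, -1.21 and -1.66 in BR-RF/BR-S (-1.51 ± 0.20, 2.84-fold lower, adjusted p = 0.00104), so every array of both structured strains against BR-S was below 0. On day 4 it was at -0.54, -1.14 and -1.33 in BR-F/BR-S (-1.08 ± 0.20, adjusted p = 0.00969) and at -0.22, -0.81 and -0.92 in BR-RF/BR-S, where it was not called (-0.72 ± 0.20, adjusted p = 0.0672). These comparisons share the BR-S colonies. The call in BR-RF/BR-S on day 7 held without any 1 array, that in BR-F/BR-S on day 4 was lost without array 2 or array 3, and that on day 7 without array 3.

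On day 4 *MET3* and *MET17* were called on the other side of 0 from day 7, while *STR3* was called lower in BR-F/BR-S on both days. In BR-RF/BR-F 1 of 33 genes fell (3.03%), where 3.15% of all 4959 genes were called lower and 2.86% higher. That count was no higher than the background. The gene that fell was *MET3*, at -0.52, -0.74 and -0.99 (-0.81 ± 0.16, 1.75-fold lower, adjusted p = 0.0169). Its call was lost without array 2 or array 3 and with the replicate block (adjusted p = 0.0564). In BR-F/BR-S 2 of 31 genes rose (6.45%) and *STR3* fell, where 2.97% of all 4350 genes were called higher and 1.75% lower. *MET3* was at 1.14, 0.80 and 0.78 (0.88 ± 0.16, 1.84-fold, adjusted p = 0.0105) and *MET17* at 1.09, 0.35 and 0.76 (0.74 ± 0.17, adjusted p = 0.0293), all above 0. *MET3* lost its call without array 3, and *MET17* lost it without any 1 array, in the deposited value table and with a dye term. Of the 9 genes of sulfate uptake and reduction measured there, 8 had a ratio above 0, with a median of 0.67, and *MET8* was at -0.28. Of these *MET3* alone was called, and *MET22* at 0.82, *MET10* at 0.71, *MET14* at 0.67 and *MET16* at 0.63 were not. With a dye term *MET16* was called (0.76, adjusted p = 0.0068), while *MET22*, *MET10* and *MET14* were not.

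The permease gene *MUP3* was the never-called gene with the lowest ratio in BR-F/BR-S on day 4, with -1.34 and -2.11 on arrays 1 and 2 and -0.22 on array 3 (-0.97 ± 0.38, adjusted p = 0.195). In BR-RF/BR-S on day 4 it had -1.27, -1.62 and 0.13 (-0.66 ± 0.38). Both biological replicates of a couple thus gave unlike values.

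Against BR-S, the feral strain showed few called sulfur genes. On day 4 limma called 0 of 31, where 2.97% of all 4506 genes were called higher and 1.84% lower. At an unadjusted p under 0.05 there were 8 of the 31, and with 1.5-fold added 4. The shares of all genes at these looser thresholds are not given here, so these counts show no excess. On day 7, 2 of 30 genes rose and *STR3* fell, where 7.30% of all 4715 genes were called higher and 8.65% lower, so the count of the sulfur genes was no higher than the background. *MET17* was at 0.73, 0.49 and 0.68 in BR-RF/BR-S on day 7 (0.65 ± 0.17, 1.57-fold, adjusted p = 0.0251), a call lost without any 1 array, in the deposited value table and with a dye term. *MET3*, *MET2* and *CYS4* were at -0.01 ± 0.16, -0.04 ± 0.19 and 0.00 ± 0.17 on that day.

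*MET22* had the highest ratio of the sulfur genes in BR-RF over both other strains on day 7. It encodes the phosphatase that clears adenosine bisphosphate, the by-product of sulfate reduction. It was at 2.75, 1.87 and 1.34 in BR-RF/BR-F (1.83 ± 0.25, 3.54-fold, adjusted p = 0.00118) and at 2.09, 1.21 and 1.86 in BR-RF/BR-S (1.75 ± 0.25, 3.37-fold, adjusted p = 0.00166), with all 6 arrays above 1. Without array 3 the second call was just lost (adjusted p = 0.0517). On day 4 it was at 0.47, -0.25 and 0.67 over BR-F (0.39 ± 0.25) and at 0.48, 0.98 and 1.20 over BR-S (0.97 ± 0.25, adjusted p = 0.0552).

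*MET22* lies on the left arm of chromosome XV, whose genes as a whole were higher in BR-RF. The median of this arm was 0.64 in BR-RF/BR-F (143 genes) and 0.55 in BR-RF/BR-S (140 genes) on day 7, and 0.56 and 0.70 on day 4, against -0.03 and -0.02 in BR-F/BR-S on days 4 and 7. Of the genes up to 40 places to either side of *MET22* that were measured, 1 of 69 had a higher ratio than *MET22* in BR-RF/BR-F on day 7 and 0 of 69 in BR-RF/BR-S, while on day 4 46 of 68 and 17 of 60 did. *MET28* and *MET30* lie on chromosome IX, whose median was 0.32 in BR-RF/BR-F and 0.35 in BR-RF/BR-S on day 7. With these 3 genes set aside, 12 of 30 genes rose in BR-RF/BR-F on day 7 with a median of 0.45. *MET17*, *SAM1* and *SUL2* lie on the right arm of chromosome XII, whose median was between -0.12 and -0.02 in all 6 couples and days.

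**Figure D4:**
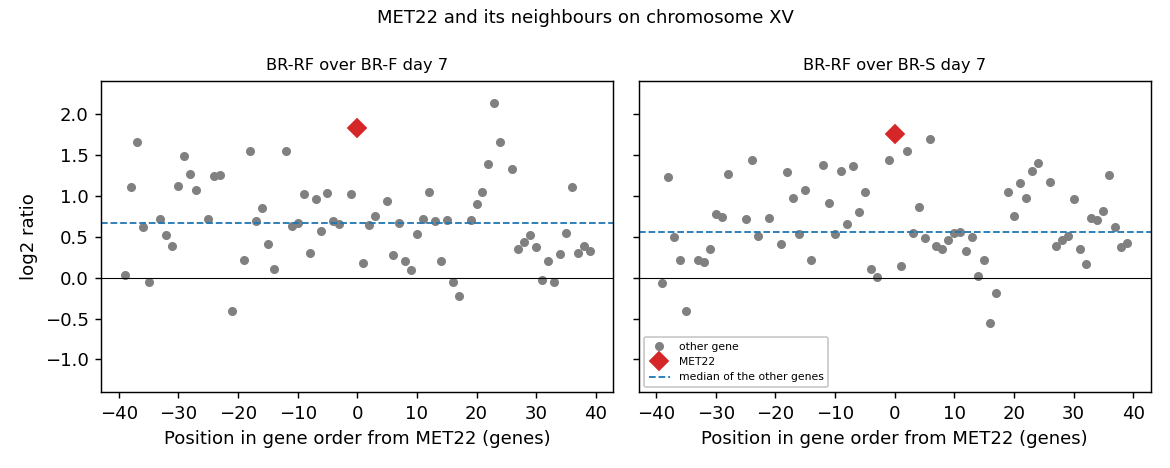
Log2 ratio of *MET22* (red diamond) and of the genes measured within 40 places of it in gene order on chromosome XV (grey points), with the median of those genes (dashed line), in BR-RF/BR-F and BR-RF/BR-S on day 7. The medians are 0.67 and 0.56, and *MET22* lies at 1.83 and 1.75.

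The change of the ratios between days 4 and 7 was tested in the same fit. In BR-RF/BR-F the ratio of 4 of 33 genes was higher on day 7 than on day 4 and of 0 lower, where 0.355% of all 4783 genes were called higher and 0.167% lower. The ratio of *MET17* differed by 1.87 ± 0.23 (adjusted p = 0.013), that of *MET2* by 1.71 ± 0.26 (adjusted p = 0.0184), that of *MET3* by 1.69 ± 0.23 (adjusted p = 0.0146) and that of *MUP1* by 1.40 ± 0.26 (adjusted p = 0.0452). For these 4 genes each array of day 4 was below 0, the nearest being *MET2* at -0.02 on array 2, and each array of day 7 above 0. The genes were picked by the day difference in these same arrays, so this separation is no separate support. The share of all genes with such a separation is not given here. The largest difference was that of *SUL1*, 2.32 ± 0.59, which was not called (adjusted p = 0.17). The median difference over the 33 genes was 0.62, with 30 above 0, and over all genes it was -0.01.

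In BR-F/BR-S the ratio of 2 of 31 genes was lower on day 7, where 0.191% of all 4179 genes were called lower and 0.120% higher. The difference was -1.88 ± 0.23 for *MET3* (adjusted p = 0.00892) and -1.66 ± 0.23 for *MET17* (adjusted p = 0.0169). *MET2* and *MUP1* had differences of -1.16 ± 0.26 and -1.24 ± 0.26 and were not called (adjusted p = 0.159 and 0.108). In BR-RF/BR-S limma called 0 of 30 genes, where 0.188% of all 4261 genes were called higher and 0.164% lower. There 5 genes had an unadjusted p under 0.05, a threshold for which no share of all genes is given here. *MET2*, *MET3*, *MET17* and *MUP1* had differences of 0.13, -0.22, 0.15 and -0.35.

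The dyes of array 3 were exchanged between day 4 and day 7 in each couple, so these differences also hold any dye effect. With a dye term the calls were 9 of 33 in BR-RF/BR-F, all higher, and 5 of 31 in BR-F/BR-S, all lower, and *MUP1* was no longer called (1.26, adjusted p = 0.0886), nor was it with the replicate block (adjusted p = 0.0744). The shares of all genes called with a dye term are not given here. Without array 2 or without array 3, 0 genes were called in BR-RF/BR-F. In BR-F/BR-S *MET17* lost its call without any 1 array, and without array 3 0 genes were called.

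**Figure D5:**
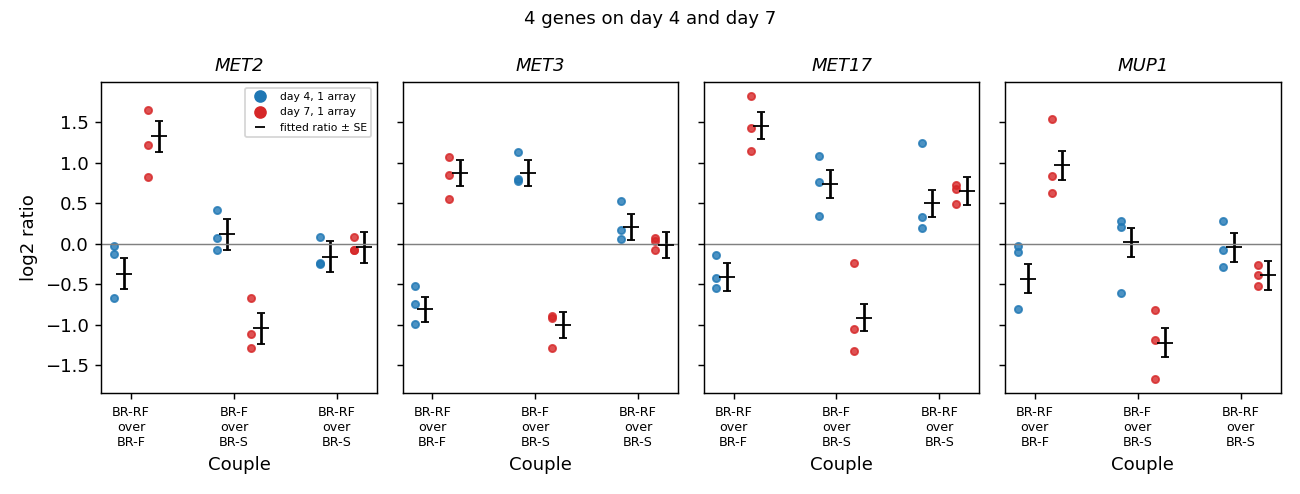
Log2 ratio of *MET2*, *MET3*, *MET17* and *MUP1* in the 3 couples on day 4 (blue) and day 7 (red), with 1 point per array and the fitted ratio with its SE in black. In BR-RF/BR-F the day 4 points lie below 0 and the day 7 points above 0, and in BR-F/BR-S the day 7 points lie below 0.

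The strain order followed from all 18 arrays fitted together, with BR-S set to 0, and is given as a description. On day 4 BR-F had the highest level of 19 of the 30 genes measured in all couples (63.3%, against 35.3% of all 4157 genes) and on day 7 the lowest level of 20 of 30 (66.7%, against 32.3% of all 4521 genes). For *MET3* the level on day 4 was 0.92 ± 0.12 in BR-F, with BR-RF at 0.16 ± 0.12, and the day 7 levels were -0.97 ± 0.12 and -0.05 ± 0.12 in the same order, so BR-F went from the highest to the lowest of the 3 strains. For *MET17* the BR-F level went from 0.80 ± 0.12 to -0.88 ± 0.12 and the BR-RF level from 0.44 ± 0.12 to 0.61 ± 0.12, relative to BR-S on the same day. The arrays of the 3 couples add up only in part, since the ratio of BR-RF/BR-S measured directly differed from the sum of the other couples by a median of 0.24 on day 4 and 0.23 on day 7 over 30 genes, and by up to 0.95 (*MMP1* on day 4).

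Among 28 genes next to the pathway, those for other sources of sulfur had the largest ratios. This list too was chosen with earlier results of these data known, so its counts are a description. On day 7, 10 of the 28 rose and 1 fell in BR-RF/BR-F, against 7.93% and 7.51% of all genes. In BR-F/BR-S 0 of 28 rose and 6 fell, against 6.08% and 5.10%, and in BR-RF/BR-S 3 of 27 rose and 4 fell, against 7.30% and 8.65%. On day 4, 27 were measured in each couple. In BR-RF/BR-F 2 rose and 1 fell, against 2.86% and 3.15% of all genes. In BR-F/BR-S 2 rose and 0 fell, against 2.97% and 1.75%. In BR-RF/BR-S 1 rose and 0 fell, against 2.97% and 1.84%. *JLP1*, which encodes a sulfonate dioxygenase that frees sulfite, was at -2.53, -2.63 and -2.31 in BR-RF/BR-F on day 4 (-2.45 ± 0.31, adjusted p = 0.0029) and at 2.00, 2.07 and 3.03 on day 7 (2.53 ± 0.31, adjusted p = 0.000728). In BR-F/BR-S it was at 3.71, 4.00 and 2.62 on day 4 (3.24 ± 0.31, 9.44-fold, adjusted p = 0.000224) and at -2.14, -1.65 and -1.94 on day 7 (-1.92 ± 0.31, adjusted p = 0.00355). It thus had the same order of signs as *MET3*, at larger ratios.

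The permease genes of this group followed on day 7. *SEO1*, a gene of the allantoate permease family, was at 1.21, 1.81 and 2.75 in BR-RF/BR-F (2.13 ± 0.26) and at -2.04, -1.34 and -1.43 in BR-F/BR-S (-1.56 ± 0.26). *YCT1*, the cysteine transporter gene, was at 1.87 ± 0.24 and -1.49 ± 0.24, and *SOA1*, the sulfonate transporter gene, at 2.06 ± 0.29 and -1.95 ± 0.29, all called (adjusted p between 0.000728 and 0.0063 for these genes and *JLP1* in both couples on day 7). The arrays of *SOA1* lay far apart, at 3.86, 0.96 and 1.71 in BR-RF/BR-F and at -3.78, -1.31 and -1.34 in BR-F/BR-S. With a dye term its call in BR-F/BR-S was lost (adjusted p = 0.0536). On day 4 *SOA1* had a value on 1 array of each couple and was not tested. *YCT1* was also called in BR-F/BR-S on day 4 (1.03 ± 0.24, adjusted p = 0.0319), and *BDS1*, an arylsulfatase gene, was not called in any couple or day. Between the days the ratios of *JLP1*, *SEO1* and *YCT1* differed by 4.98 ± 0.43, 2.49 ± 0.37 and 2.33 ± 0.33 in BR-RF/BR-F (adjusted p = 0.00117, 0.0172 and 0.0159).

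Branches that lead into or out of the pathway gave scattered calls. *HOM6*, for homoserine dehydrogenase, rose in BR-RF/BR-F on day 7, at 1.11, 0.96 and 0.96 (1.00 ± 0.13, adjusted p = 0.000891), while *HOM2* and *HOM3* were not called. *SHM2* and *MTD1*, of the folate one-carbon supply, were lower against BR-S on day 7 in BR-F (-1.32 ± 0.21 and -0.92 ± 0.16) and in BR-RF (-1.04 ± 0.21 and -0.98 ± 0.16), and *SHM2* was higher in BR-RF/BR-F (0.80 ± 0.21, adjusted p = 0.025). In the polyamine branch *SPE3*, for spermidine synthase, was higher in BR-RF/BR-F (1.08 ± 0.15) and over BR-S (0.62 ± 0.15) on day 7, and *SPE2*, on the left arm of chromosome XV, was higher over BR-F on both days (0.73 ± 0.19 and 0.69 ± 0.19). Of the glutathione genes, *GSH2*, on the same arm, was higher in BR-RF/BR-F (0.70 ± 0.19) and *GSH1* lower in BR-RF/BR-S (-0.88 ± 0.23), and of the methylthioadenosine salvage genes *MDE1* was higher in BR-RF/BR-S (0.77 ± 0.18), all on day 7. With a dye term the day 7 calls of *SHM2*, *SPE2* and *GSH2* in BR-RF/BR-F were lost (adjusted p = 0.052, 0.0672 and 0.118). The other calls of these branches were kept.

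The other subunits of SCF-Met30 included *HRT1*, on the left arm of chromosome XV, which was called higher in BR-RF in every couple and day with BR-RF, at 0.94 ± 0.13 and 0.92 ± 0.13 over BR-F and 0.77 ± 0.13 and 0.57 ± 0.13 over BR-S. *CDC34*, the ubiquitin-conjugating enzyme gene, was lower in BR-RF on day 7, at -1.68, -0.98 and -0.44 over BR-F (-0.88 ± 0.26, adjusted p = 0.0421) and at -2.36, -1.31 and -1.56 over BR-S (-1.69 ± 0.26, adjusted p = 0.00222). *CDC53* and *SKP1* were not called.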

How the data were processed

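The authors scanned the 18 arrays and read the spots with TIGR Spotfinder. The deposited array files hold the background-subtracted median intensity of both dyes for 13056 spots. The deposited value table, which the authors normalised by LOWESS in MIDAS, is in log2 units (Cy5 over Cy3) and served as an alternative. Its block order was found by correlation with the array files.

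Poor spots and spots without positive intensity were dropped. Loess normalisation was done within arrays (span 0.3, with no weight for the 1910 spots without a gene name). Spots of a gene were averaged, and ratios were turned by the labelled dyes. The limma fit (version 3.58.1, R 4.3.3) used the 12 biological replicate ratios, with 1 mean per couple and day (prior degrees of freedom 4.67, prior SD 0.268). Tests were two-sided and adjusted over all genes measured in both biological replicates. The methods of the study name 1.5-fold and a p under 0.05, which was an alternative. The fit was also run on simulated data with independent ratios. That simulation held no shared strains or dye effects, so it does not check the calls made on these arrays. Replicate ratios correlated across genes at r = 0.354 to 0.757, and the precision is limited by how few arrays there were. By their file headers the array images were processed in 3 periods, each with 1 array of every couple and day. Array 3 was always in the third period, and arrays 1 and 2 were in the first and second, except in BR-RF/BR-F on day 4, where array 1 was in the second and array 2 in the first.

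The genes, roles and neighbour lists were chosen with earlier results of these data known. Every sulfur gene called in at least 1 couple and day was named with its arrays, and never-called genes were given by ranges and examples for each role. For some called neighbour genes the fitted ratio alone is given, and their calls were not followed without single arrays. A search for promoter motifs was not run. No genome build is given for the arrays in the sources used here, and the R64 annotation served for names and gene order. Figures were drawn with Python 3.11.15 and matplotlib 3.10.9.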

Additional observations from a re-analysis of the deposited data

Results flagged for a closer look

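The ratio between strains differed between days 4 and 7, by a test of the difference itself in limma, for 4 genes in BR-RF/BR-F and 2 genes in BR-F/BR-S. In BR-RF/BR-F the difference (day 7 minus day 4, log2) was 1.87 for *MET17*, 1.71 for *MET2*, 1.69 for *MET3* and 1.40 for *MUP1*. In BR-F/BR-S it was -1.88 for *MET3* and -1.66 for *MET17*. The couples share BR-F, and array 3 had opposite dyes on the days. With a dye term all but *MUP1* (adjusted p = 0.0886) were called. Groups of 3 arrays are too small for a test of single outlying arrays, and none was made.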

How the results depend on the processing

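Of the 27 calls within a couple and day and the 6 between days, 0 changed sign under any alternative that could be computed. All 33 were called with an offset of 50, with poor spots kept, with a trended spread, in the strain-level fit and at 1.5-fold with an unadjusted p, and 31 in the deposited value table, 30 after median centring, 28 with the arrays as separate replicates, 27 with a dye term and 25 with the replicate block. Without dim spots 30 could be tested and 30 were called. Without array 1, 2 or 3, 21 of 33, 20 of 32 and 8 of 33 were called. The median of the genes kept its sign in 13 of 13 settings in every couple and day except BR-RF/BR-S on day 4 (9 of 13, -0.08 to 0.09). The counts below are of called genes and moved by more than 1.5 times. The shares of all genes under these settings are not given here. In BR-RF/BR-F on day 4 (1 in the report) 2 were called without dim spots (those under the 0.25 quantile of intensity), 2 with a dye term, 5 in the strain-level fit and 6 at 1.5-fold with an unadjusted p. In BR-F/BR-S on day 4 (3) it was 7 with separate arrays, 6 with a dye term, 11 in the strain-level fit and 10 at 1.5-fold. In BR-RF/BR-S on day 4 (0) it was 2 without dim spots, 2 with separate arrays, 2 with a dye term, 3 in the strain-level fit and 4 at 1.5-fold, and on day 7 (3) 7 without dim spots, 9 in the strain-level fit and 8 at 1.5-fold. Between days it was 9, 13 and 15 in BR-RF/BR-F (4) with a dye term, in the strain-level fit and at 1.5-fold, 4, 5, 6 and 12 in BR-F/BR-S (2) with separate arrays and these 3 settings, and 1 and 4 in BR-RF/BR-S (0) in the strain-level fit and at 1.5-fold. The causes were not tested.

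Leaving out each of arrays 1, 2 and 3 in turn gave 0 to 2 called genes in BR-RF/BR-F on day 4 and 7 to 11 on day 7, 0 to 2 in BR-F/BR-S on day 4 and 0 to 5 on day 7, 0 to 2 in BR-RF/BR-S on day 4 and 1 to 3 on day 7, and between days 0 to 3, 0 to 1 and 0 to 0. Leaving out array 3 of all couples at once could not be fitted, as no residual degrees of freedom remain. It was therefore left out of 1 couple and day at a time (both days for a difference between days), which was chosen after seeing the data. The biological replicates of different couples share a number and, for array 3, the period in which the images were processed, so the block separates both and these cannot be told apart. With the replicate block 0 genes were called in BR-RF/BR-F on day 4 and 9 on day 7, and correlations of the replicate differences between couples and days ran from -0.543 to 0.323. The other counts under the block stayed within 1.5 times. No share of all genes is given here for the fits without single arrays or with the block.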
